A study of Mus musculus with 24 samples.

Results

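The genes described here are 40 genes of autophagy and the lysosome, read from liver arrays of mice with or without the nuclear receptor Ppara in the liver. They were chosen by gene symbol: every probe on the array that carried 1 of the 40 symbols was a candidate, and the brightest probe of each gene stood for it. All 40 genes were among the 17215 genes tested. They comprise 24 genes of the autophagy machinery, 14 lysosomal genes and 2 transcription factors (Tfeb and Tfe3).

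The animals were male mice of the C57Bl/6J strain, 8 weeks old and killed at ZT16 (hours after lights on), and their total liver RNA was labelled with Cy3 and read on 1-colour Agilent arrays. The mice were liver knockouts for Ppara (PPARaLKO, here LKO) or liver wild types (PPARaLWT, here WT), and were fed freely on chow or fasted for 24 h. By the labels, 5 WT mice were fed and 5 fasted, and 6 LKO mice were fed and 6 fasted, which makes 22 animals on 24 arrays. A pair of WT animals, 1 of each feeding state, had 2 arrays apiece, and the values of such an animal were averaged here. The design text counts 6 mice in each group, and the difference is set out with the processing. The promoter that drove the deletion of Ppara, and the allele, are not given in the sources used here. The p-values measure the spread between these mice.

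Macroautophagy wraps cytoplasm, organelles and protein aggregates in a double membrane, the autophagosome, and delivers them to the lysosome. The ULK kinase complex starts the process, a class III PI3-kinase complex marks the membrane, Atg9a and Atg2a supply lipid, a ubiquitin-like conjugation system attaches Atg8 proteins of the LC3 and GABARAP families to it, and cargo receptors such as Sqstm1 tie the load to those proteins. The lysosome is acidified by a vacuolar ATPase and filled with hydrolases. In liver the route supplies amino acids and lipid during fasting, and Ppara, Tfeb and Tfe3 are known regulators of genes of the pathway.

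Every level below is a log2 signal relative to the 75th percentile of all probes on that array, and every change is a difference of such levels, given with its SE. A change was called where limma's test, adjusted by Benjamini-Hochberg over all 17215 genes, gave an adjusted p under 0.05. Levels of different genes come from different probes and are not comparable. The chosen probe of each of the 40 genes was well above background in all 22 animals, and no member probe was saturated. The Ppara probe read lower in LKO than in WT, 1.59-fold among fed and 1.84-fold among fasted mice, with no overlap between the genotypes in either state. Fed LKO replicate 3 stood apart: it lay far from its group in 8.55% of all genes, against 2.11% for the next animal, and member calls that change without it are given both ways. The 9 hepatocyte markers tested had a summed linear level of 6840 to 7880 times the array's 75th percentile over the 4 groups, and their genotype differences lay between -0.24 and 0.11.

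Fasting raised many of the 40 genes in WT liver. Of the 40, 19 rose and 6 fell, that is 47.5% and 15%, where 23.1% of all genes rose and 21.2% fell. The cysteine protease gene Ctsl, the mitophagy receptor gene Bnip3, the cargo receptor genes Optn and Sqstm1, and the Atg8 genes Gabarapl1, Map1lc3b and Map1lc3a each rose by 0.72 to 0.91. Ulk2, a kinase that starts autophagy, fell by 1.05. The groups did not overlap for 23 of the 40 genes (57.5%), against 34.3% of all genes. The median change of the 40 genes was 0.14, and that of all genes 0.010. The 40 genes were chosen with earlier results of these data known. Their shares beside those of all genes, here and below, are therefore a description and no independent test.

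In LKO liver 17 of the 40 genes rose and 8 fell (42.5% and 20%), where 23% of all genes rose and 26.7% fell. The groups did not overlap for 18 genes (45%), against 27.3% of all genes. The median change was 0.046, and that of all genes -0.037. The genes called in the 2 genotypes were largely shared: 16 rose in both, which is 16 of the 19 in WT and 16 of the 17 in LKO, and 4 fell in both. With all animals no gene was called higher in 1 genotype and lower in the other. Without fed LKO replicate 3, Atg13 was called lower in WT and higher in LKO. The shared genes were 10 of the autophagy machinery, 5 of the lysosome and Tfeb among those that rose, and Ulk2, Atg9a, Atg4b and Ctsb among those that fell. In neither genotype were 10 genes called with all animals, 7 of the machinery and the 3 vacuolar ATPase subunits. Among the 7 was Atg3, which was called lower in LKO without fed LKO replicate 3.

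**Figure D1:**
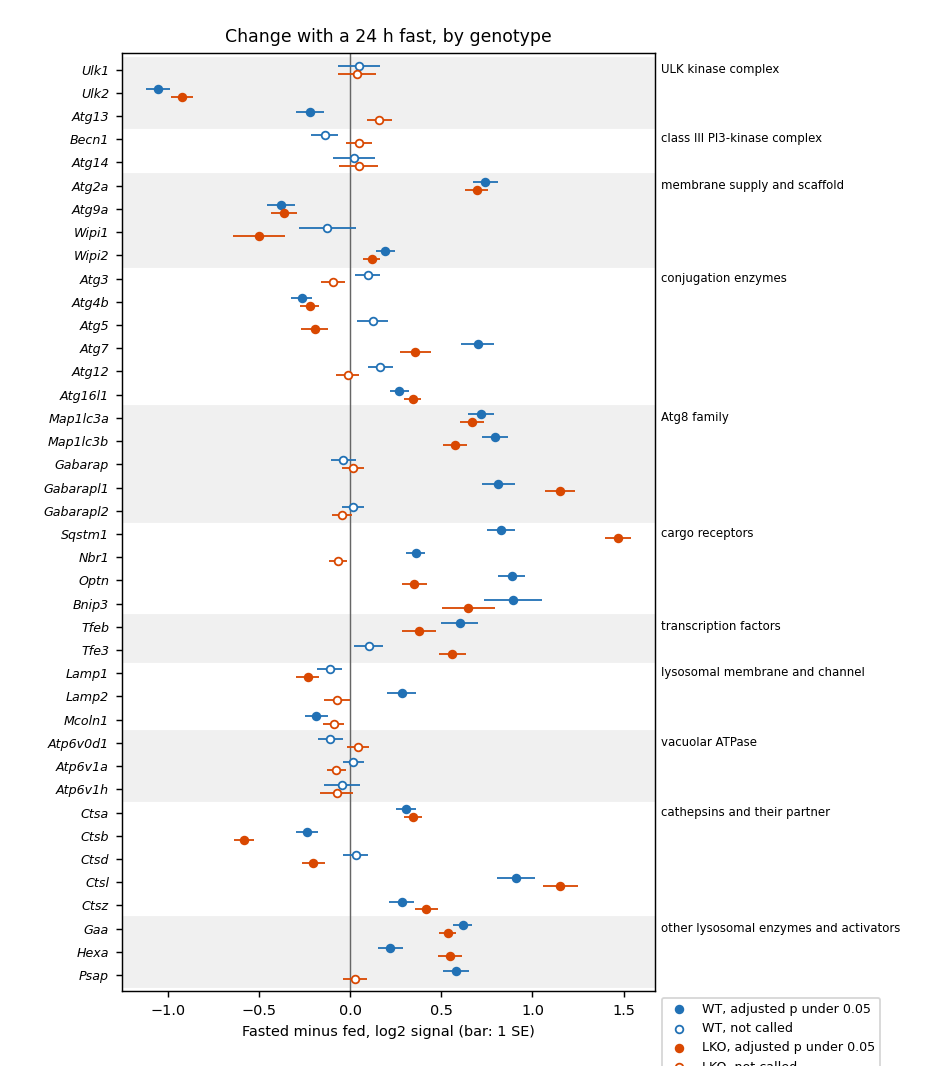
Change with a 24 h fast for each of the 40 genes, ordered by role, in WT (blue, 5 fed and 5 fasted) and LKO (orange, 6 fed and 6 fasted); the x axis is fasted minus fed log2 signal, bars are 1 SE and filled points passed the test. The cargo receptor and Atg8 genes spread from below 0 to 1.47, Ulk2 lies near -1 in both genotypes, and the vacuolar ATPase genes lie around 0.

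Among the genes that start autophagy, Ulk2 gave the largest decrease. Its level was 2.69, 2.78, 2.79, 2.82 and 2.70 in the 5 fed WT mice and 1.72, 1.57, 1.69, 1.75 and 1.81 in the 5 fasted ones. In LKO it was 2.52 to 2.70 with a median of 2.63 when fed and 1.43 to 1.86 with a median of 1.71 when fasted. Every fasted animal lay below every fed animal of its genotype. The change was -1.05 ± 0.067 in WT (adjusted p = 3.5e-10) and -0.92 ± 0.061 in LKO (adjusted p = 3.7e-10), about 2.07-fold and 1.9-fold lower, and a second Ulk2 probe fell by 0.97 ± 0.072 and 0.90 ± 0.066. Ulk1, the paralogous kinase, was not called in either genotype, with changes of 0.048 ± 0.11 and 0.039 ± 0.10 and 95% intervals of -0.19 to 0.28 and -0.17 to 0.25.

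Atg13, the scaffold of the kinase complex, separated the genotypes. It read 4.31, 4.33, 4.22, 4.36 and 4.34 in fed WT and 4.06, 4.14, 4.07, 4.08 and 4.11 in fasted WT, a fall of 0.22 ± 0.076 (adjusted p = 0.0231) with no overlap. In LKO it read 4.13 to 4.43 with a median of 4.25 when fed and 4.19 to 4.68 with a median of 4.45 when fasted, a change of 0.16 ± 0.069 that was not called (adjusted p = 0.0628) with all animals and was called without fed LKO replicate 3 (0.18 ± 0.072, adjusted p = 0.04). All 6 fasted LKO mice lay above all 5 fasted WT mice. A dim second Atg13 probe gave the same signs, with changes of -0.87 ± 0.34 and 0.53 ± 0.32. The PI3-kinase genes Becn1 and Atg14 were called in neither fast, and their changes lay between -0.14 and 0.048.

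Among genes of membrane supply, Atg2a, which encodes a lipid transfer protein, rose in both genotypes. It read 3.80, 3.71, 3.77, 3.86 and 3.84 in fed WT and 4.53, 4.72, 4.51, 4.48 and 4.45 in fasted WT, and 3.76 to 3.88 with a median of 3.86 in fed and 4.39 to 4.80 with a median of 4.48 in fasted LKO. The changes were 0.74 ± 0.069 (adjusted p = 4.73e-08) and 0.69 ± 0.063 (adjusted p = 2.05e-08), and the 95% interval of their difference was -0.24 to 0.15. Atg9a, the membrane protein that carries the seed vesicles, fell by 0.38 ± 0.077 in WT and 0.36 ± 0.07 in LKO. Of the phosphoinositide-binding genes, Wipi2 rose by 0.19 ± 0.052 in WT and by 0.12 ± 0.048 in LKO (adjusted p = 0.044), the latter call being lost under 15 of 31 alternatives: quantile normalization, the authors' deposited table, no filter on dim probes, a replicate block, the first repeat arrays, and leaving out any of fed WT replicates 1, 2 and 3, fed LKO replicates 1, 3, 4 and 6 and fasted LKO replicates 1, 5 and 6. The other 2 Wipi2 probes changed by 0.31 ± 0.052 and 0.090 ± 0.079 in WT and by 0.26 ± 0.048 and 0.25 ± 0.072 in LKO. Wipi1 fell by 0.50 ± 0.14 in LKO and changed by -0.12 ± 0.16 in WT, where it was not called, and the difference between the 2 was not called either (adjusted p = 0.239).

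The 6 conjugation genes moved in different directions. Atg7, the enzyme that activates Atg8 proteins and Atg12, read 2.62, 2.73, 2.61, 2.79 and 2.67 in fed WT and 3.51, 3.36, 3.33, 3.32 and 3.41 in fasted WT, so that the groups were far apart. In LKO it read 2.45 to 3.08 with a median of 2.90 when fed, the lowest value being that of replicate 3, and 3.02 to 3.33 with a median of 3.24 when fasted, and these groups overlapped. The increases were 0.70 ± 0.09 (adjusted p = 3.01e-06) and 0.36 ± 0.083 (adjusted p = 0.00115), and without fed LKO replicate 3 the latter was 0.27 ± 0.061. A second Atg7 probe rose less, by 0.38 ± 0.096 in WT and 0.20 ± 0.088 in LKO. Atg16l1, which places the conjugation complex on the membrane, rose by 0.27 ± 0.053 and 0.34 ± 0.048, and Atg4b, the protease that trims Atg8 proteins, fell by 0.26 ± 0.057 and 0.22 ± 0.052. Other probes of Atg16l1 and Atg4b gave changes nearer to 0 or of the opposite sign, and with the mean of a gene's probes both Atg4b calls and the WT call of Atg16l1 were lost. Atg5, a partner of Atg12 in the conjugate, fell by 0.19 ± 0.076 in LKO (adjusted p = 0.0379), a call lost without the filter on dim probes, with a replicate block, and without any of fed LKO replicates 1, 2, 4, 5 and 6 and fasted LKO replicates 1, 2, 4 and 5. Its 95% interval in WT was -0.05 to 0.30. Atg3 and Atg12 were called in neither fast with all animals, and without fed LKO replicate 3 Atg3 fell by 0.15 ± 0.052 in LKO (adjusted p = 0.021).

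The Atg8 family divided into 3 genes that rose and 2 that were not called. Map1lc3b, the gene of the common autophagosome marker LC3B, read 5.81, 5.66, 5.88, 5.77 and 5.73 in fed WT and 6.54, 6.76, 6.46, 6.54 and 6.52 in fasted WT. It read 5.68 to 6.09 with a median of 5.76 in fed and 6.32 to 6.47 with a median of 6.40 in fasted LKO. The increases were 0.79 ± 0.071 and 0.57 ± 0.065 (1.73-fold and 1.49-fold, adjusted p = 2.92e-08 and 3.55e-07), with no overlap in either genotype. Map1lc3a rose by 0.72 ± 0.071 and 0.67 ± 0.065. Gabarapl1 read 7.51, 7.40, 7.64, 7.72 and 7.43 in fed WT and 8.35, 8.21, 8.46, 8.42 and 8.33 in fasted WT. It read 7.07 to 7.70 with a median of 7.46 in fed and 8.46 to 8.68 with a median of 8.62 in fasted LKO. Every fasted animal was above every fed one. The increases were 0.81 ± 0.09 and 1.15 ± 0.083, and their difference did not pass the test (adjusted p = 0.0574). The 2 remaining family members were not called on their brightest probes, with 95% intervals of -0.17 to 0.10 and -0.11 to 0.14 for Gabarap and of -0.11 to 0.14 and -0.16 to 0.072 for Gabarapl2. With the mean of a gene's probes, Gabarap was called lower and Gabarapl2 higher with fasting in WT.

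All 4 cargo receptor genes rose in WT, and 3 of them in LKO. Sqstm1 encodes p62, which binds ubiquitinated cargo and is itself degraded by autophagy. It read 6.60, 6.61, 6.78, 6.58 and 6.92 in fed WT and 7.59, 7.53, 7.59, 7.53 and 7.40 in fasted WT. It read 6.72 to 6.91 with a median of 6.85 in fed LKO and 8.10 to 8.52 with a median of 8.34 in fasted LKO. The fed groups overlapped, and all 6 fasted LKO mice were above all 5 fasted WT mice. The increase was 0.83 ± 0.077 in WT (1.78-fold, adjusted p = 4.96e-08) and 1.47 ± 0.07 in LKO (2.77-fold, adjusted p = 5.22e-12). Its other 2 probes rose by 0.91 ± 0.1 and 0.72 ± 0.11 in WT and by 1.62 ± 0.091 and 1.57 ± 0.10 in LKO.

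Optn and Nbr1 were lower in fasted LKO than in fasted WT. Optn, a ubiquitin-binding receptor, read 2.76, 2.91, 2.81, 3.01 and 2.77 in fed WT and 3.79, 3.87, 3.73, 3.57 and 3.71 in fasted WT. It read 2.45 to 2.83 with a median of 2.76 in fed and 2.97 to 3.17 with a median of 3.06 in fasted LKO. Fasting separated the groups in both genotypes, and all fasted LKO mice were below all fasted WT mice. The increases were 0.89 ± 0.074 (adjusted p = 1.29e-08) and 0.35 ± 0.068 (adjusted p = 0.000196). A second Optn probe rose by 0.95 ± 0.095 in WT and 0.75 ± 0.087 in LKO, so the size of the LKO increase depended on the probe. Nbr1, a receptor that works beside p62, read 1.26, 1.33, 1.38, 1.34 and 1.29 in fed WT and 1.68, 1.86, 1.65, 1.57 and 1.64 in fasted WT, against 1.24 to 1.36 with a median of 1.26 in fed and 1.09 to 1.32 with a median of 1.24 in fasted LKO. It rose by 0.36 ± 0.054 in WT (adjusted p = 1.94e-05), its LKO groups overlapping with a change of -0.067 ± 0.05. The 2 dimmer Nbr1 probes had SEs of at least 0.23 and did not resolve this change, and with the mean of the gene's probes the Nbr1 calls were lost. Bnip3, which sits on mitochondria and recruits Atg8 proteins, rose by 0.90 ± 0.16 in WT and 0.65 ± 0.14 in LKO, and without fed LKO replicate 3, the lowest of its group at 5.81, the latter was 0.47 ± 0.082.

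Of the transcription factors, Tfe3 rose with fasting in LKO and was not called in WT. It read 3.21, 3.14, 3.23, 3.23 and 3.39 in fed and 3.21, 3.51, 3.37, 3.36 and 3.26 in fasted WT, which overlap. It read 3.10 to 3.55 with a median of 3.20 in fed and 3.67 to 3.95 with a median of 3.77 in fasted LKO, which do not. The changes were 0.10 ± 0.08 (adjusted p = 0.326) and 0.56 ± 0.073 (adjusted p = 2.38e-06). Tfeb rose by 0.60 ± 0.10 in WT and 0.38 ± 0.093 in LKO on its brightest probe, which was designed to a predicted transcript. Its other 3 probes, designed to curated transcripts, changed by -0.14 ± 0.079, 0.049 ± 0.20 and -0.038 ± 0.19 in WT, and the mean over its probes was not called in either genotype. The Tfeb result is therefore that of 1 probe.

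**Figure D2:**
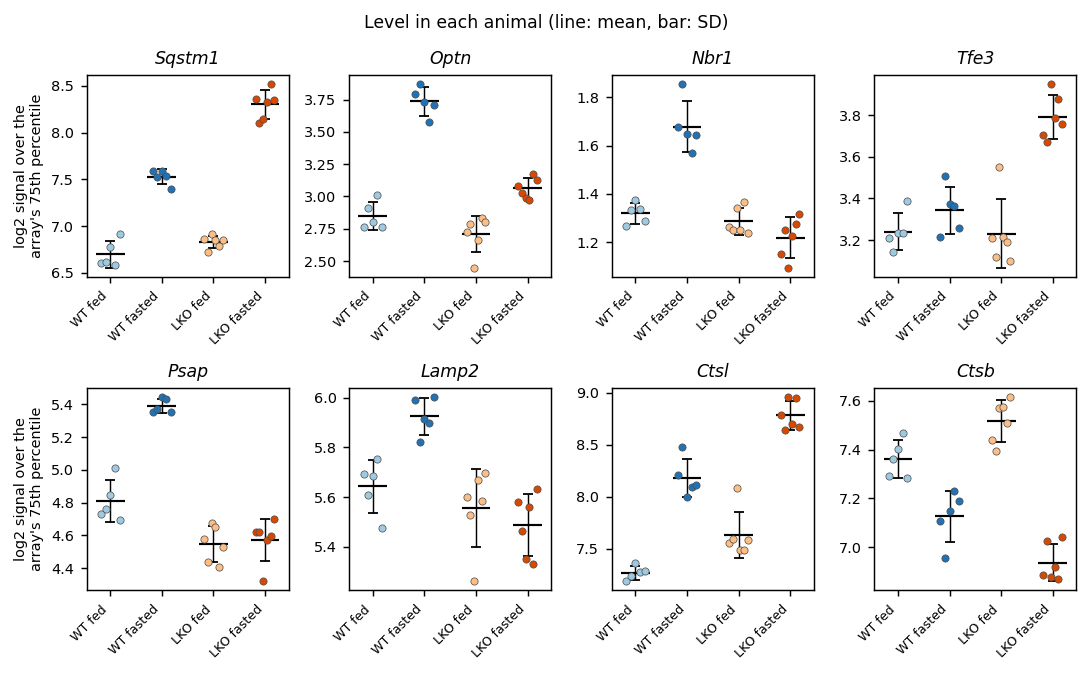
Log2 signal over the array's 75th percentile in each of the 22 animals for 8 genes, by group; lines are group means and bars SDs. Fasted LKO mice lie highest for Sqstm1, Tfe3 and Ctsl and hold the lowest values for Ctsb, whereas for Optn, Nbr1, Psap and Lamp2 the fasted WT mice lie above every other group.

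Of the 14 lysosomal genes, 7 rose and 2 fell in WT (50% and 14.3%), and 5 rose and 3 fell in LKO (35.7% and 21.4%). Of the 24 machinery genes, 11 rose and 4 fell in WT (45.8% and 16.7%), and 10 rose and 5 fell in LKO (41.7% and 20.8%). For all genes the shares were 23.1% and 21.2% in WT and 23% and 26.7% in LKO. The cathepsins, the proteases of the lysosome, were divided. Ctsl read 7.19, 7.24, 7.36, 7.28 and 7.29 in fed WT and 8.21, 8.48, 8.00, 8.10 and 8.11 in fasted WT. It read 7.49 to 8.09 with a median of 7.57 in fed LKO, where replicate 3 was the highest, and 8.64 to 8.96 with a median of 8.74 in fasted LKO. No group overlapped with another in the 4 comparisons between pairs of groups. The increases were 0.91 ± 0.10 (1.88-fold, adjusted p = 7.36e-07) and 1.15 ± 0.096 (2.22-fold, adjusted p = 6.89e-09). Ctsz, a carboxypeptidase, rose by 0.28 ± 0.068 and 0.42 ± 0.062, and Ctsa, which protects other hydrolases and is itself a carboxypeptidase, by 0.31 ± 0.054 and 0.34 ± 0.05, although a dim second Ctsa probe changed by -0.51 ± 0.23 and -0.16 ± 0.21 and with the mean of its probes both Ctsa calls were lost (-0.10 in WT, adjusted p = 0.544, and 0.093 in LKO, adjusted p = 0.524).

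Ctsb, another cysteine protease gene, fell with fasting. It read 7.29, 7.36, 7.40, 7.47 and 7.28 in fed WT and 7.11, 6.96, 7.15, 7.23 and 7.19 in fasted WT, and 7.39 to 7.62 with a median of 7.54 in fed and 6.87 to 7.04 with a median of 6.90 in fasted LKO. Fed and fasted animals did not overlap in either genotype. The decreases were 0.24 ± 0.06 in WT (adjusted p = 0.00317) and 0.58 ± 0.055 in LKO (adjusted p = 3.57e-08). Ctsd, the aspartic protease gene, fell by 0.20 ± 0.063 in LKO (adjusted p = 0.0106) and changed by 0.031 ± 0.069 in WT, where it was not called. Under quantile normalization or in the authors' deposited table the LKO decrease of Ctsd was not called.

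Among the other enzymes and activators, Gaa, the acid glucosidase that breaks down glycogen in the lysosome, read 5.02, 4.96, 5.00, 4.99 and 5.11 in fed WT and 5.59, 5.74, 5.70, 5.67 and 5.47 in fasted WT. It read 4.78 to 4.91 with a median of 4.84 in fed and 5.29 to 5.44 with a median of 5.37 in fasted LKO. The fed and fasted animals were far apart in each genotype, and the increases were 0.62 ± 0.051 (adjusted p = 1.2e-08) and 0.54 ± 0.047 (adjusted p = 1.36e-08). Hexa, a subunit of hexosaminidase, read 3.11, 3.25, 3.01, 3.10 and 3.18 in fed and 3.25, 3.27, 3.46, 3.39 and 3.37 in fasted WT, and 3.00 to 3.25 with a median of 3.10 in fed and 3.51 to 3.87 with a median of 3.65 in fasted LKO. It rose by 0.22 ± 0.07 in WT and 0.55 ± 0.064 in LKO, and all fasted LKO mice lay above all fasted WT mice. Psap encodes prosaposin, the precursor of the activators of sphingolipid breakdown. It read 4.73, 4.76, 4.85, 5.01 and 4.69 in fed WT and 5.35, 5.37, 5.44, 5.43 and 5.35 in fasted WT, and 4.41 to 4.68 with a median of 4.55 in fed and 4.32 to 4.70 with a median of 4.61 in fasted LKO. Its WT groups were separate and its LKO groups overlapped. Psap rose by 0.58 ± 0.072 in WT (adjusted p = 1.82e-06) and changed by 0.026 ± 0.066 in LKO, with a 95% interval of -0.11 to 0.16.

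At the lysosomal membrane, Lamp2, a glycoprotein with several splice forms, read 5.69, 5.61, 5.68, 5.75 and 5.48 in fed and 5.99, 5.82, 5.91, 5.90 and 6.00 in fasted WT, and 5.26 to 5.70 with a median of 5.59 in fed and 5.33 to 5.63 with a median of 5.51 in fasted LKO. The WT groups were separate and the LKO groups overlapped. On its brightest probe Lamp2 rose by 0.28 ± 0.079 in WT (adjusted p = 0.00639) and was not called in LKO (-0.07 ± 0.072). A nearly as bright probe, designed to another curated transcript, changed by 0.12 ± 0.056 in WT and by -0.25 ± 0.0515 in LKO. The dimmest passing Lamp2 probe changed by 0.165 ± 0.081 in WT and by 0.29 ± 0.074 in LKO. The fasting change of Lamp2 in LKO therefore depended on the probe. Lamp1, the other main glycoprotein of that membrane, fell by 0.23 ± 0.062 in LKO and changed by -0.11 ± 0.068 in WT without a call. Mcoln1, a calcium channel, fell by 0.19 ± 0.063 in WT (adjusted p = 0.0204), a call lost without fasted WT replicate 1 (adjusted p = 0.0573) and with the mean of its probes (adjusted p = 0.0547). The 3 vacuolar ATPase genes Atp6v0d1, Atp6v1a and Atp6v1h were called in neither fast, and their changes lay between -0.11 and 0.045.

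The level of each class as a whole was summarised in every animal by the median, over its genes, of the level minus that gene's mean. For the 24 machinery genes this median was -0.10 to -0.02 in fed WT and 0.11 to 0.20 in fasted WT, which do not overlap. It was -0.22 to -0.05 in fed LKO and -0.0036 to 0.052 in fasted LKO, so that fasted LKO mice lay between the fed groups and fasted WT. For the 14 lysosomal genes it was -0.067 to 0.0024 in fed WT, 0.0071 to 0.10 in fasted WT, -0.12 to -0.0061 in fed LKO and -0.067 to 0.042 in fasted LKO. The LKO groups overlapped for the lysosomal genes. These medians have no test, and quantile normalization or the authors' deposited table moved the median machinery change in LKO from 0.047 to 0.10 and 0.088.

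**Figure D3:**
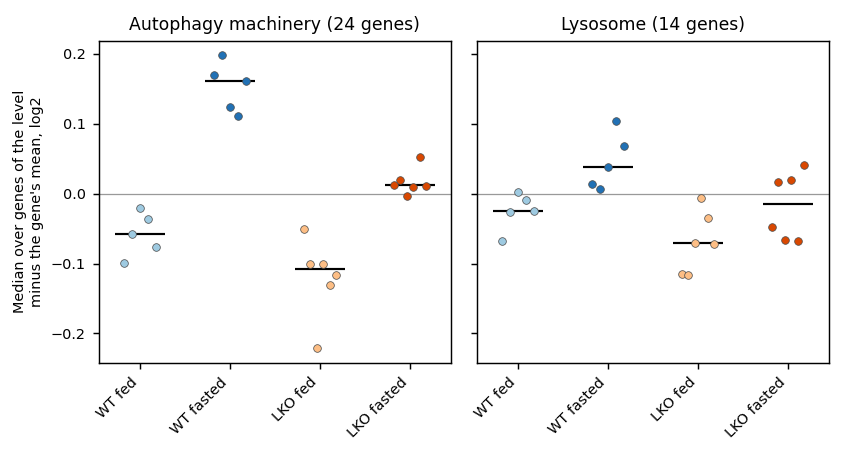
Median over the 24 machinery genes (left) and the 14 lysosomal genes (right) of the log2 level minus the gene's mean over all animals, 1 point per animal by group, with lines at group medians. Fasted WT mice lie highest for the machinery, from 0.11 to 0.20, and fasted LKO mice lie around 0.

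Few of these genes differed between the fed genotypes by this test. Of the 40, 1 was higher in LKO (2.5%, against 1.77% of all genes) and 3 were lower (7.5%, against 2.25%). The groups did not overlap for 3 genes (7.5%, against 3.69%). Ctsl was higher by 0.36 ± 0.10 (adjusted p = 0.0443). Lower in LKO were Becn1, a core subunit of the PI3-kinase complex, by 0.27 ± 0.073, Psap by 0.26 ± 0.069 and Gaa by 0.18 ± 0.049, with adjusted p of 0.0407, 0.0344 and 0.0464. Each of the 4 calls was lost under at least 1 alternative. Without fed LKO replicate 3 the Ctsl difference was 0.27 ± 0.079 (adjusted p = 0.0516), and Atg7 was called higher in its place. The count of 4 became 0 without fed WT replicate 3 or fed LKO replicate 6. It became 1 without fed WT replicate 1 or 4, fasted WT replicate 1 or 4, fed LKO replicate 1, 2 or 5, or fasted LKO replicate 4, and 2 without fed WT replicate 2 or 5, fasted WT replicate 3 or fasted LKO replicate 1.

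Fasted, the genotypes differed in 18 of the 40 genes. In LKO 7 were higher (17.5%, against 16.5% of all genes) and 11 lower (27.5%, against 21.4%), which is close to the share over the whole array. The groups did not overlap for 13 genes (32.5%, against 25.3%). Higher in fasted LKO were Sqstm1 by 0.77 ± 0.074 (1.71-fold, adjusted p = 8.03e-08), Ctsl by 0.61 ± 0.10, Tfe3 by 0.45 ± 0.077, Atg13 by 0.34 ± 0.073, Hexa by 0.32 ± 0.067, Gabarapl1 by 0.24 ± 0.086 and Ctsz by 0.21 ± 0.065. Without fed LKO replicate 3 the count was 21 (8 higher and 13 lower, with 40.7% of all genes called), which added Bnip3 (-0.30 ± 0.082, adjusted p = 0.00546), Atg7 (-0.16 ± 0.061, adjusted p = 0.0422) and Gabarap (0.14 ± 0.042, adjusted p = 0.0139) to the 18. A second Atg7 probe, with all animals, differed by 0.078 ± 0.092, the opposite sign. The Gabarapl1 call (adjusted p = 0.0359) was lost under 10 of 31 alternatives: without the filter on dim probes, with the mean of its probes, with a replicate block, and without any of fasted WT replicates 1, 2 and 5 and fasted LKO replicates 2, 3, 4 and 6.

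Lower in fasted LKO were Psap by 0.82 ± 0.069 (1.76-fold, adjusted p = 1.53e-08), Optn by 0.67 ± 0.071 (1.6-fold, adjusted p = 3.09e-07), Nbr1 by 0.46 ± 0.052 and Lamp2 by 0.44 ± 0.076. For each of these 4 genes all 6 LKO mice lay below all 5 WT mice. A second Optn probe was lower by 0.53 ± 0.091. Lower by smaller amounts were the conjugation genes Atg3, Atg5 and Atg12 (-0.30, -0.28 and -0.27), Gaa (-0.26), the vacuolar ATPase subunit Atp6v1a (-0.22), Ctsb (-0.19, not called under quantile normalization or in the authors' deposited table) and Map1lc3b (-0.18). The Map1lc3b call (adjusted p = 0.0444) was lost under 20 of 31 alternatives, with adjusted p up to 0.464. These were quantile normalization, normexp, the authors' deposited table, no filter on dim probes, the mean of its probes, a replicate block, the first repeat arrays, and leaving out any of fed WT replicates 1 and 4, fasted WT replicates 1, 2, 4 and 5, fed LKO replicates 4 and 6 and fasted LKO replicates 1, 2, 4, 5 and 6. Of the other 2 passing Lamp2 probes, the 1 designed to a second curated transcript was lower by 0.33 ± 0.054, and the third, to another transcript, was higher by 0.35 ± 0.078.

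Markers of liver endothelium were also lower in this comparison. All 10 of 10 markers were called lower in fasted LKO than in fasted WT, where 21.4% of all genes were. Their median difference was -0.44, with values from -1.098 to -0.366. Their summed linear level, in units of the array's 75th percentile, was 70.8 to 105 in fasted WT, 48.9 to 60.6 in fasted LKO, 63.9 to 80.1 in fed WT and 60 to 84 in fed LKO. With fasting 6 of the 10 rose in WT, where 23.1% of all genes rose. In LKO 1 rose and 5 fell, where 23% of all genes rose and 26.7% fell. In that LKO fast Optn rose, and Psap, Nbr1 and Lamp2 were not called. Between the fasted genotypes, markers of Kupffer cells were called lower in 1 of 12 cases and those of stellate cells in 1 of 10. The Kupffer markers had a median difference of -0.071, with 5 of 12 above 0. The stellate markers had a median difference of -0.19, with 1 of 10 above 0. In whole liver, fewer cells of a type and less RNA per cell cannot be told apart, and the part of endothelial RNA in the differences of Psap, Optn, Nbr1 and Lamp2 was not tested.

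Whether the fasting change itself differed between the genotypes was tested as an interaction, LKO minus WT. It was called for 9 of the 40 genes: 4 changed more upwards in LKO (10%, against 7.5% of all genes) and 5 more downwards (12.5%, against 11.1%). The upward differences were 0.64 ± 0.10 for Sqstm1 (adjusted p = 0.000263), 0.46 ± 0.11 for Tfe3 (0.00567), 0.38 ± 0.10 for Atg13 (0.0139) and 0.33 ± 0.095 for Hexa (0.0205). The downward differences were -0.56 ± 0.098 for Psap (0.000551), -0.53 ± 0.10 for Optn (0.000946), -0.43 ± 0.073 for Nbr1 (0.000461), -0.35 ± 0.11 for Lamp2 (0.026) and -0.35 ± 0.081 for Ctsb (0.0055). A second Optn probe differed by -0.21 ± 0.13. The Lamp2 and Ctsb calls were lost under quantile normalization and in the authors' deposited table, and that of Lamp2 also without fed WT replicate 5, without the filter on dim probes and with the mean of its probes. In the same interaction 7 of the 10 endothelial markers were called lower and none higher, where 11.1% of all genes were called lower. Their median was -0.62, and without fed LKO replicate 3 the count was 9 of 10. Of the 10 stellate markers 1 was called lower and 0 lay above 0, with a median of -0.28. The part of these cells in the differences of the 9 genes was not tested. The interaction shares its animals with the comparisons above, so that these are the values of the same mice set side by side.

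Without fed LKO replicate 3 the interaction was called for 14 genes, 5 upwards and 9 downwards, where 23.3% of all genes were called. The 9 genes above were all among them. The 5 added were Atg3, Atg5, Atg7 and Bnip3, with differences of -0.25 ± 0.076, -0.40 ± 0.081, -0.42 ± 0.088 and -0.42 ± 0.12, and Ctsl, with a difference of 0.33 ± 0.11. A second Atg7 probe, with all animals, differed by -0.18 ± 0.13. With all animals Atg5, Atg7 and Gabarapl1 lay just outside the threshold, with adjusted p of 0.0535, 0.0579 and 0.0574. Leaving out each other animal in turn gave counts between 8 and 11.

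**Figure D4:**
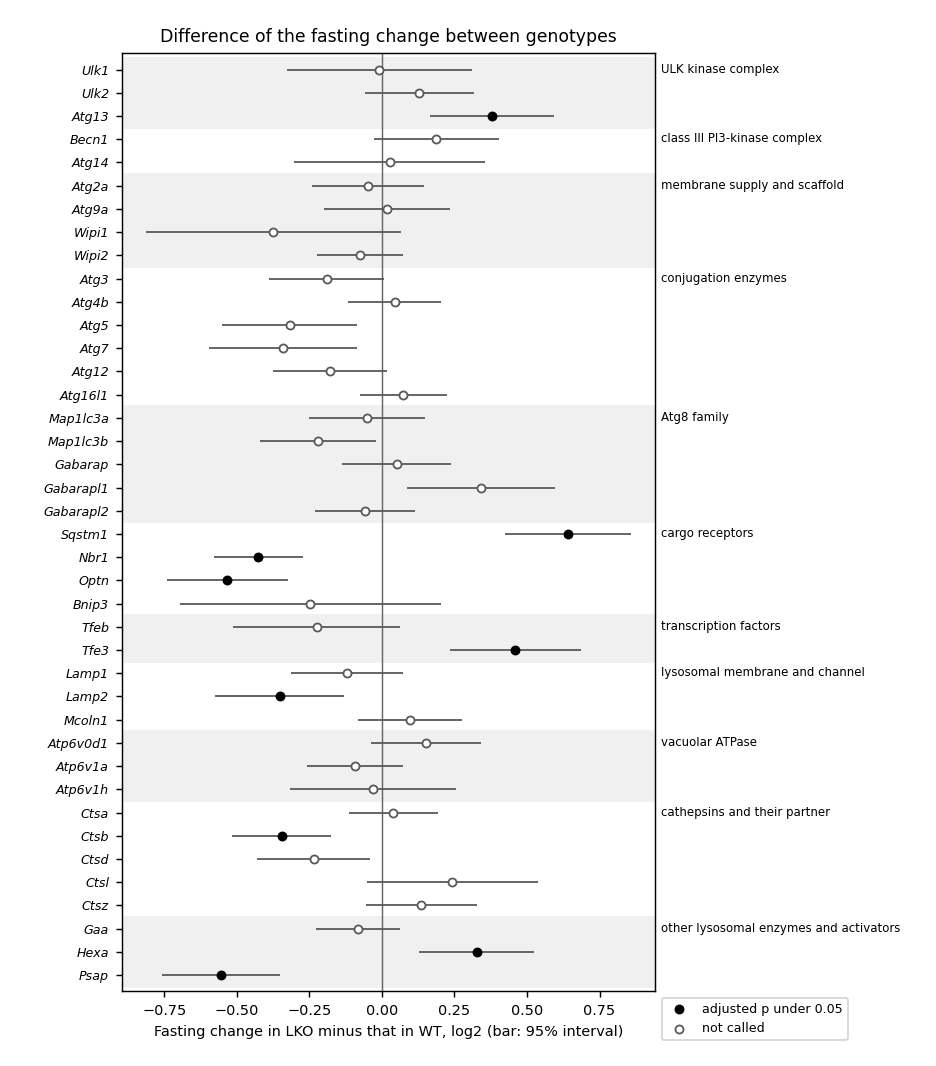
Fasting change in LKO minus that in WT for each of the 40 genes, in log2 units with 95% intervals, by role; filled points passed the test. The cargo receptor genes hold both ends of the machinery, from Sqstm1 at 0.64 to Optn at -0.53, and Psap, at -0.56, is the lowest lysosomal gene.

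A wider list of 151 genes of the pathway, of which 148 were tested, holds the rest of the pathway. It too was chosen with earlier results of these data known. Its genes, here and below, were read with all animals and on their brightest probe. They were not checked without fed LKO replicate 3 or under the other alternatives. With fasting 43 rose and 34 fell in WT (52% called, against 44.4% of all genes), and 54 rose and 43 fell in LKO (65.5%, against 49.7%). Of all genes 23.1% rose and 21.2% fell in WT, and 23% rose and 26.7% fell in LKO. The median change of the 148 was 0.030 in WT and 0.060 in LKO, beside 0.010 and -0.037 for all genes. Of the 41 lysosomal hydrolase genes, 9 rose and 10 fell in WT (median -0.041). In LKO 11 of them rose and 19 fell (median -0.135). Of the 13 receptor genes, 7 rose and 0 fell in WT, and 8 rose and 1 fell in LKO. The largest increase in both genotypes was that of Retreg1, a receptor for autophagy of the endoplasmic reticulum, by 1.96 ± 0.14 in WT (3.88-fold) and 2.36 ± 0.13 in LKO (5.14-fold). Atg9b, a paralogue of Atg9a, fell too, but its probe was well above background in 3 of 5 fed WT mice, all 6 fed LKO mice and no fasted mouse. Against the lowest signal well above background on each array it was at least 1.96-fold lower in fasted WT and at least 3.5-fold lower in fasted LKO (adjusted p = 0.000461 and 8e-07). Among the lysosomal genes of the list, the sialic acid transporter gene Slc17a5 fell by 0.97 ± 0.11 and 1.14 ± 0.10, the hydrolase gene Sgsh rose by 0.99 ± 0.11 and 0.88 ± 0.10, and the activator gene Gm2a fell by 1.08 ± 0.13 and 0.95 ± 0.12.

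Of the 148 genes, 19 differed upwards and 13 downwards in the interaction (21.6% called, against 18.6% of all genes). Flcn and Fnip2 encode parts of a complex that acts on Rag GTPases at the lysosome and so on the location of both factors. Flcn changed by 0.15 ± 0.086 in WT (adjusted p = 0.159) and rose by 1.06 ± 0.079 in LKO (adjusted p = 1.74e-09), a difference of 0.91 ± 0.12 (adjusted p = 2.65e-05). Fnip2 fell by 0.50 ± 0.17 in WT and rose by 0.48 ± 0.16 in LKO, a difference of 0.98 ± 0.23 (adjusted p = 0.00587), and its partner Fnip1 rose in both, by 0.49 ± 0.088 in WT and 1.1 ± 0.081 in LKO. Vmp1, a lipid scramblase of the endoplasmic reticulum needed for autophagosome formation, fell by 0.60 ± 0.12 in WT and rose by 0.40 ± 0.11 in LKO, a difference of 0.99 ± 0.17. Mtor, the kinase that restrains autophagy in the fed state, rose by 0.51 ± 0.07 in WT and changed by -0.0063 ± 0.064 in LKO, a difference of -0.52 ± 0.095. Between the genotypes, 3 of 148 were higher and 9 lower in LKO when fed (8.11% called, against 4.02% of all genes). Among the 9 was the sorting receptor gene Sort1, lower by 0.67 ± 0.15. When fasted 34 were higher and 34 lower (45.9% called, against 37.9% of all genes), with the largest differences for Atg16l2, a paralogue of Atg16l1, at 1.33 ± 0.24 and the protease gene Ctsc at -0.92 ± 0.14.

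The promoters of the 40 genes were searched because Tfeb and Tfe3 bind an E-box element found at many lysosomal genes. RefSeq promoter windows (build GRCm38.p6, 250 bases before to 50 after the start) were at hand for 34 of the 40. The palindromic core CACGTG, the same on both strands, stood in the windows of 13 of the 34 genes (38.2%), against 8.09% of the 27025 genes with a window. The longer palindrome TCACGTGA, each of which contains a CACGTG, stood in 6 (17.6%), namely Atg3, Atp6v0d1, Atp6v1a, Ctsa, Ctsd and Mcoln1, against 1.12% of all. The sequence TGTTTAC, bound by forkhead factors and searched on both strands, was in no window of the 34 genes and in 4.05% of all genes with a window. The exact DR1 repeat, the type of element that Ppara binds with its partner, was in none and in 0.0481% of all. A match is a description of these letters, and its absence says only that they are not in this window. Genes and motifs were chosen with earlier results of these data known, so the shares are a description too.

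Shown are the 250 bases upstream of 6 genes, 5′ to 3′ on the gene's strand, with CACGTG in capitals. The first 3 (Ctsa, Ctsl and Gaa) rose with fasting in both genotypes, and the last 3 (Mcoln1, Ctsd and Lamp1) were called lower in 1 genotype. They lie at chr2:164833523-164833772, plus strand (Ctsa), chr13:64370521-64370770, minus strand (Ctsl), chr11:119267713-119267962, plus strand (Gaa), chr8:3500269-3500518, plus strand (Mcoln1), chr7:142387828-142388077, minus strand (Ctsd) and chr8:13158911-13159160, plus strand (Lamp1).
Ctsa: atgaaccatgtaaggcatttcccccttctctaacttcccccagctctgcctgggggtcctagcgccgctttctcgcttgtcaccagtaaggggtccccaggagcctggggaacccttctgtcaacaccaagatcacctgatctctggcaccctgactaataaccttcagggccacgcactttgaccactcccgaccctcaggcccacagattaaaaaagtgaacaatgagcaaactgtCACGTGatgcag
Ctsl: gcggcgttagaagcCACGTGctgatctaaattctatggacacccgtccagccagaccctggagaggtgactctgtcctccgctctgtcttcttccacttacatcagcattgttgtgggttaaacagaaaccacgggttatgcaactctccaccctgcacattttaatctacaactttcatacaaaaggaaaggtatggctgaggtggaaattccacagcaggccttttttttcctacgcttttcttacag
Gaa: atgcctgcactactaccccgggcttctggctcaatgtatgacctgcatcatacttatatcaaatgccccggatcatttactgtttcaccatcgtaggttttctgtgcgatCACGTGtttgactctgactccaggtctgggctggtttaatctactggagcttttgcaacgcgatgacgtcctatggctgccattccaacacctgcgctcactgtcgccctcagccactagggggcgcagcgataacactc
Mcoln1: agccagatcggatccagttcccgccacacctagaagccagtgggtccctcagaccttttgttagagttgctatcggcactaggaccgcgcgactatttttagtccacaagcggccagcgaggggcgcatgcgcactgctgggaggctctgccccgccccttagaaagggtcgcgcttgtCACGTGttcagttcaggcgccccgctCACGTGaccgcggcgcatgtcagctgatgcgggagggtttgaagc
Ctsd: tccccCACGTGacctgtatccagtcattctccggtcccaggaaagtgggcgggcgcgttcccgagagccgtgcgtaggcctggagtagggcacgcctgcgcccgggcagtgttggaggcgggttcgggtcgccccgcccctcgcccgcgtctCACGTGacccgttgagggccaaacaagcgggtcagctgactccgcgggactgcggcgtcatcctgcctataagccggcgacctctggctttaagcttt
Lamp1: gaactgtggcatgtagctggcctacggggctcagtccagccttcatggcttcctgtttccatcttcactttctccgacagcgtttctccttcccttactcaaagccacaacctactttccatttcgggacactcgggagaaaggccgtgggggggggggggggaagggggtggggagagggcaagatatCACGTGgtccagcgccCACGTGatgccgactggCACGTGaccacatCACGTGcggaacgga

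Relative to the start, the cores lie at -61, -45, -28 and -15 in Lamp1, at -71 and -45 in Mcoln1, at -245 and -98 in Ctsd, at -12 and 5 in Ctsa, at -236 in Ctsl and at -140 in Gaa. Genes with and without the core were among those that rose and those that fell. Of the 13 genes with CACGTG, 5 rose and 1 fell with fasting in WT, with a median change of 0.096, and of the 21 without it 12 rose and 4 fell, with a median of 0.22. In LKO 5 of the 13 rose and 3 fell, and 10 of the 21 without it rose and 4 fell. Of all genes 23.1% rose and 21.2% fell in WT, and 23% rose and 26.7% fell in LKO. None of the 13 was among the 9 genes called for the interaction, of which 8 had a window without the core and 1, Ctsb, had no window here. The interaction was called for 18.6% of all genes. Without fed LKO replicate 3, Atg3, Atg5, Atg7, Bnip3 and Ctsl, which hold the core, were called as well, and 23.3% of all genes. Whether genes with the core changed otherwise than those without it was not tested.

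**Figure D5:**
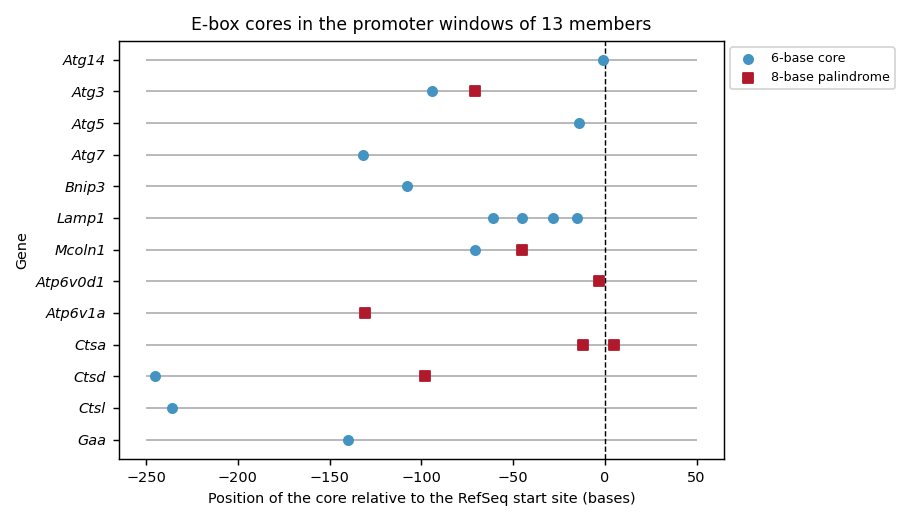
Positions of CACGTG cores (circles) and of those within the longer 8-base palindrome (squares) in the promoter windows of the 13 genes that hold them, in bases from the RefSeq start site at 0. Lamp1 has 4 cores, Atg3, Mcoln1, Ctsa and Ctsd have 2 each, and the other genes 1.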

How the data were processed

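The authors hybridised Cy3-labelled cRNA from total liver RNA to 1-colour Agilent arrays and deposited scanner intensity per spot, read with Feature Extraction 10.10.1.1 per the file headers (background subtracted and detrended within the array). They also deposited a table of log2 values normalized across arrays, with limma named in the submitters' processing notes. It carries 1 averaged value for each animal hybridised on 2 arrays, and was used as an alternative. The labels name 22 animals although the design text counts 24, and animals were taken from the labels.

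Here log2 of the processed intensity minus each array's 75th percentile (451 to 621.2 intensity units before log2) was used, and the 2 arrays of an animal were averaged. Of 56605 probes, 46291 carried a symbol, and a probe was kept where 5 or more of the 22 animals gave a signal well above background, which held for 28138. The brightest probe stood for a gene, which left 17215 genes. The 40 members had 82 probes, of which 77 passed, and 15 members had 1 probe. Tests used limma 3.58.1 in R 4.3.3, with 1 mean per group, 1 estimate of the spread over all 4 groups, and Benjamini-Hochberg adjustment over all genes. The scripts were tested on simulated data. The number of mice, 5 or 6 in each group, limits the precision.

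All 40 members were named. Of the wider pathway list, up to 3 called genes with the largest change per direction and comparison were named, except 1 that is not reported here. Members, lists and motifs were chosen with earlier results of these data known. Promoter windows are RefSeq's (GRCm38.p6), matched by symbol to 34 members, and no sequence after the start is shown. Protein sequences were not used here. The alternatives were quantile normalization, normexp background correction with an offset of 50, the deposited table, no filter on dim probes, the mean of a gene's probes, slide as a block, a replicate block, 1 of the repeat arrays alone, and leaving out each animal. The 3 slides held 8 arrays each, with 2 of every group. Within single slides all 25 members called with fasting in WT, 24 of the 25 in LKO (not Atg5), and all 4 and 18 called between genotypes kept their sign.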

Additional observations from a re-analysis of the deposited data

Results flagged for a closer look

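The fasting change differed between LKO and WT, by the interaction test, upwards for Sqstm1 (0.64), Tfe3 (0.46), Atg13 (0.38) and Hexa (0.33), and downwards for Psap (-0.56), Optn (-0.53), Nbr1 (-0.43), Lamp2 (-0.35) and Ctsb (-0.35). A second Optn probe gave a smaller difference, -0.21 ± 0.13.

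Single animals lay far from the rest of their group in 14 of the 160 combinations of a gene and a group, where chance alone flags about 1 in 20 groups. Fed LKO replicate 3 gave 7 of the 14. It was low for Atg4b (1.73, the others 1.91 to 1.99), Atg5 (3.33, the others 3.73 to 3.86), Atg7 (2.45, the others 2.85 to 3.08) and Bnip3 (5.81, the others 6.62 to 6.98). It was high for Gabarap (6.44, the others 6.03 to 6.09), Tfe3 (3.55, the others 3.10 to 3.21) and Ctsl (8.09, the others 7.49 to 7.60). Fasted WT replicate 2 was high for Atg2a (4.72) and Map1lc3b (6.76), and fasted WT replicate 4 was low for Atg12 (3.65). Fed WT replicate 3 was high for Gabarapl2 (4.89). Fasted LKO replicate 3 was low for Atp6v0d1 (4.03) and Psap (4.32), and fasted LKO replicate 6 was high for Bnip3 (7.40).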

How the results depend on the processing

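Over 31 alternatives, of which 22 left out 1 animal each, the members called with fasting in WT and in LKO, between fasted genotypes and in the interaction stayed within 1.5 times the reported 25, 25, 18 and 9, except for the interaction without fed LKO replicate 3. Leaving out 1 animal gave 24 to 26 calls for fasting in WT, 23 to 26 in LKO, 16 to 21 between fasted genotypes, 8 to 14 for the interaction and 0 to 4 between fed genotypes. The 4 calls between fed genotypes became 2 with normexp, the deposited table or slide as a block, 1 with only the first repeat arrays, and 0 without the filter on dim probes. With a replicate block they became 0, and the other 4 counts 25, 23, 16 and 10. The replicate numbers were not taken to pair the animals. Of 30 pairs of same-numbered animals 5 correlated above 0.1, in a range of -0.18 to 0.18. Animals with different numbers were not compared, so these values cannot decide whether the numbers pair the animals. Of the reported calls, 19 of 25, 19 of 25, 0 of 4, 14 of 18 and 6 of 9 held under every alternative. With the mean of a gene's probes, Ctsa with fasting in WT reversed to -0.10 (adjusted p = 0.544) and Atp6v1h with fasting in LKO to 0.27 (adjusted p = 0.0196), since their probes disagree. That alternative also ended the fasting calls of Atg4b and Tfeb in both genotypes, of Ctsa in LKO and of Atg16l1, Nbr1 and Mcoln1 in WT, both other Nbr1 calls, the Lamp2 interaction, and Map1lc3b and Gabarapl1 between fasted genotypes. It called Gabarap and Gabarapl2 with fasting in WT, and Ulk1, Wipi1, Gabarap and Gabarapl2 between fasted genotypes. Quantile normalization and the deposited table ended the Ctsb and Lamp2 interactions (Ctsb adjusted p up to 0.142, Lamp2 up to 0.109) and the lower Ctsb in fasted LKO (up to 0.668), and in them the median lysosomal difference between fasted genotypes was 0.035 and 0.044 in place of -0.062. Without the filter the median change of all genes with fasting in LKO was -0.11.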
